A study of Saccharomyces cerevisiae with 6 samples.

Results

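Of 9 genes for agglutination, cell fusion and nuclear fusion during mating of the budding yeast Saccharomyces cerevisiae, 7 fell in cells exposed to OGT2468, a compound whose structure and target are not named in the labels. FIG1 kept 20.7% of its level in the solvent control, FIG2 29.6%, FUS2 29.8%, AGA1 42.4%, FUS1 43.2%, KAR4 48.2% and KAR5 51.2%. SAG1, at 71.4% of its control level, did not pass the test, and neither did AGA2, which lay around background. The 9 genes are the agglutinins AGA1, AGA2 and SAG1, the fusion and mating projection genes FUS1, FUS2, FIG1 and FIG2, and the nuclear fusion genes KAR4 and KAR5. They were chosen by name, with earlier results of these data known. Each was measured by 1 probe set annotated to that gene alone, out of 5449 genes measured. The treated group was 3 cultures of wild-type cells exposed in mid-log phase to 0.1 µM OGT2468 for 3 h. The control group was 3 cultures of wild-type cells grown for 3 h with the solvent DMSO at 0.1%. No DMSO content is listed for the treated cultures. The design text describes the cultures as biological samples, and each had its own Affymetrix array. Neither the strain nor the mating type is named, and no pheromone is named among the additions.

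Haploid yeast cells mate as pairs of a and alpha cells. Each type secretes a peptide pheromone that binds a receptor on the other, and a G protein and a MAP kinase cascade then activate the transcription factor Ste12, which drives mating genes. The cells adhere through agglutinins, grow a projection towards the partner, fuse their walls and membranes, and then fuse their nuclei in the process called karyogamy.

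Median intensity over the tested probe sets was between 238 and 284 on the OGT2468 arrays and between 262 and 393 on the DMSO arrays, so the arrays were brought to a common distribution before testing. Changes are differences of log2(normalized intensity + 16), OGT2468 minus DMSO, and a percentage of the DMSO level is that change written as a ratio. Background on an array, taken from probe sets of another species, lay between 21.8 and 25.9 intensity units. The 3′ to 5′ log2 ratio of the control probe sets of ACT1, a measure of RNA integrity, was between 0.33 and 0.41 on OGT2468 arrays and between 0.30 and 0.35 on DMSO arrays. Its part in the results below was not tested. Probe sets differ in how strongly they respond to RNA, so levels are compared between arrays and never between genes.

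All 4 fusion and mating projection genes fell, with a median change of -1.75. FIG1, which encodes a membrane protein of the mating projection that takes part in calcium entry, had intensities of 363, 398 and 216 on the OGT2468 arrays, against 1934, 1726 and 2104 on the DMSO arrays. The lowest DMSO array was thus far above the highest OGT2468 array. The change was -2.27 ± 0.18 (SE, n = 3 per group, limma adjusted p = 0.00377), with a 95% interval of the remaining level from 15.2% to 28.2%. Only 2 of the 5449 genes had a larger measured fall than FIG1, which stood at rank 3. Both are among the PRM genes described below, PRM6 (-2.45, named after its value was seen) and PRM3 (-2.37). In a culture, fewer cells that express a gene and less RNA per cell cannot be told apart from these values.

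FIG2 encodes a GPI-anchored cell wall adhesin of the mating projection, related in sequence to Aga1. Its intensities were 1289, 1726 and 1111 with OGT2468, against 4699, 6225 and 6044 with DMSO. The groups were well separated, with a change of -1.76 ± 0.18 (SE, limma adjusted p = 0.00964). Without OGT2468 replicate 3 or DMSO replicate 3 the call was narrowly lost, at limma adjusted p = 0.0537 and 0.0520, while the change was -1.69 and -1.80. FUS2, whose product works at the tip of the projection with the membrane-bending protein Rvs161 in the fusion of mating cells, had 170.5, 220 and 159 units with OGT2468, against 734, 747 and 885 with DMSO. These values did not overlap either, and the change was -1.75 ± 0.14 (SE, limma adjusted p = 0.00331).

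FUS1, which encodes a membrane protein of the projection tip needed for efficient cell fusion, had intensities of 1082, 1096 and 932 with OGT2468, against 2838, 2617 and 3435 with DMSO. All 3 treated cultures lay close together at less than the lowest DMSO value. The change was -1.21 ± 0.07 (SE, limma adjusted p = 0.00161), and the remaining level had a 95% interval from 38.3% to 48.7%. FUS1 had the lowest adjusted p of the 9 genes, although its change was smaller than those of FIG1, FIG2, FUS2 and AGA1.

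**Figure D1:**
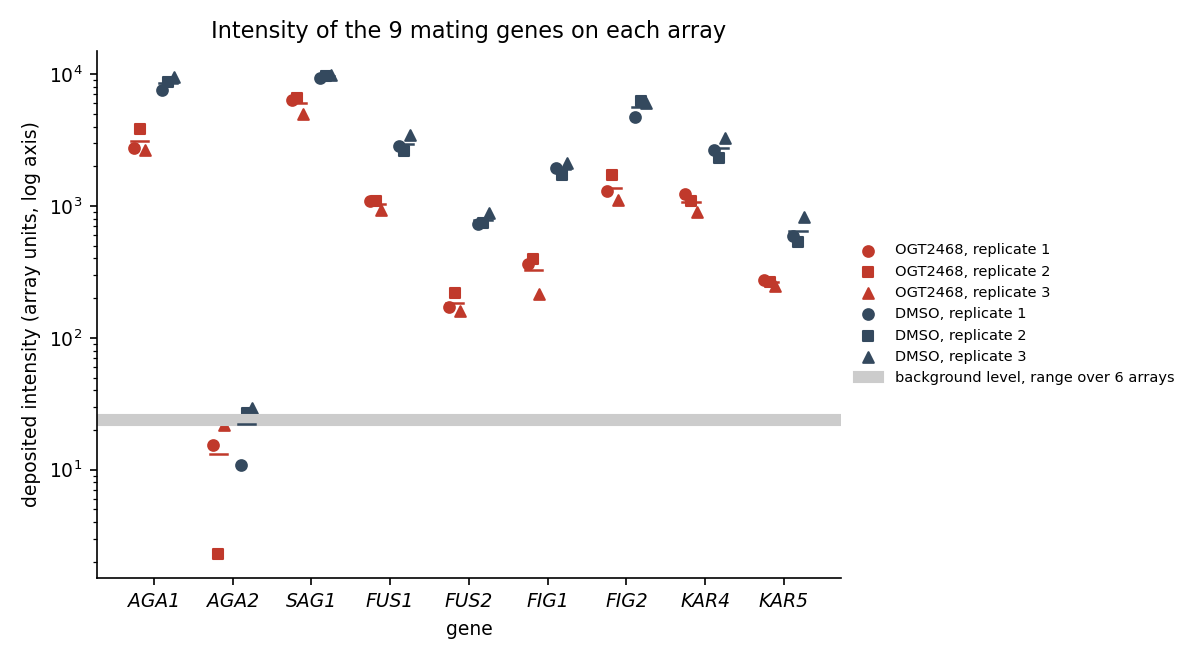
Deposited intensity (array units, log axis) of the 9 genes on each array, with OGT2468 in red and DMSO in dark grey, one symbol per replicate and a line at the mean of the 3 arrays. In 8 genes every OGT2468 value lies below every DMSO value, and the 6 values of AGA2, from 2.3 to 29.3 units, lie below, in or just above the grey background band of 21.8 to 25.9 units.

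Both nuclear fusion genes fell, to about the same extent (a median change of -1.01). KAR4 encodes a transcription factor that acts with Ste12 on genes of karyogamy, and also works in the entry into meiosis. It had 1235, 1088 and 894 units with OGT2468, against 2666, 2301 and 3272 units with DMSO. The change was -1.05 ± 0.08 (SE, n = 3 per group, limma adjusted p = 0.00315). KAR5 encodes a protein of the nuclear envelope needed for the fusion of nuclear membranes. Its intensities were 277, 267 and 245 with OGT2468, against 592, 531 and 819.5 with DMSO, so that the treated cultures varied little. The change was -0.97 ± 0.06 (SE, limma adjusted p = 0.00201), with a 95% interval of the remaining level from 46.1% to 56.8%.

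Of the 3 agglutinins 1 fell, AGA1, and the median change was -0.49. AGA1 encodes the GPI-anchored subunit of a-agglutinin, which cells of both mating types can make. It had 2769, 3843 and 2678 units with OGT2468, against 7549, 8644.5 and 9454 units with DMSO. The groups were separate, and the change was -1.24 ± 0.18 (SE, n = 3 per group, limma adjusted p = 0.0286). The call did not hold when 1 array was left out, other than OGT2468 replicate 2. Without OGT2468 replicate 2 the adjusted p was 0.0147, and without any other 1 array it was between 0.0534 and 0.113, with changes from -1.41 to -1.07 over the 6 fits.

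SAG1 encodes alpha-agglutinin, the partner that binds a-agglutinin on the surface of alpha cells. It had 6394, 6615 and 4938 units with OGT2468, against 9415, 9691 and 9887 units with DMSO. The groups did not overlap, but with a change of -0.49 ± 0.09 (SE) SAG1 did not pass over all probe sets (limma adjusted p = 0.0663), and the 95% interval of its remaining level ran from 60.8% to 83.7%. Without OGT2468 replicate 2 it passed, with a change of -0.57 and an adjusted p of 0.0359. It also passed where fewer dim probe sets entered the test, with the limma adjusted p at 0.0151 for probe sets above background on at least 3 arrays and at 0.0167 for the named S. cerevisiae probe sets alone.

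AGA2 encodes the small secreted subunit of a-agglutinin that binds Sag1, and is made by a cells. It had 15.4, 2.3 and 21.8 units with OGT2468, against 10.8, 26.8 and 29.3 units with DMSO. It was above background on 0 of 3 OGT2468 arrays and on 2 of 3 DMSO arrays, by a few units. The change of -0.36 ± 0.34 (SE, limma adjusted p = 0.656) is therefore a comparison of values around background, and no fold is given for it.

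**Figure D2:**
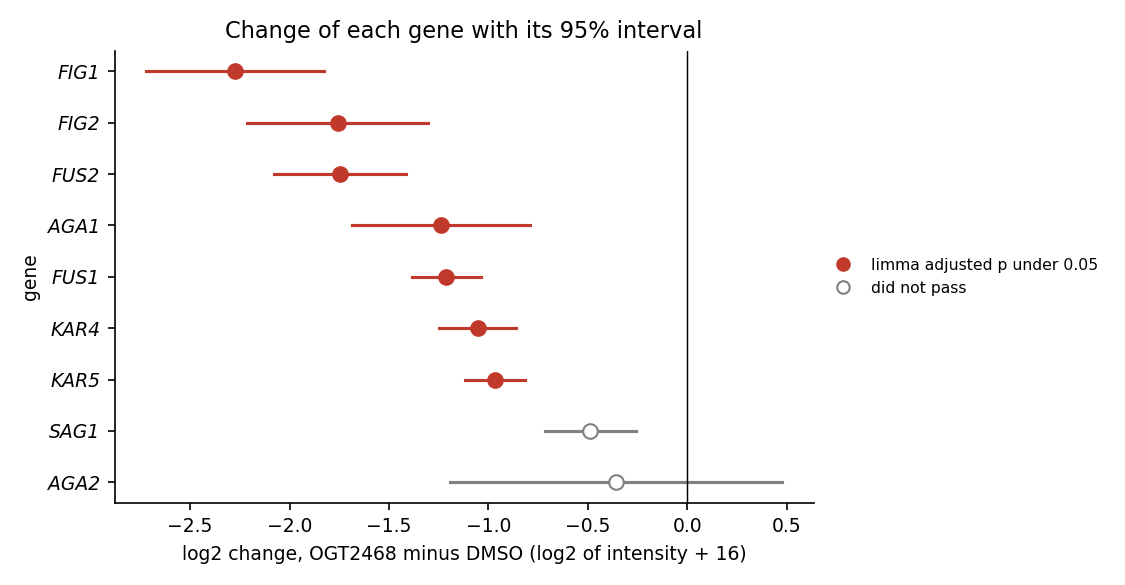
Log2 change of each gene (x axis, OGT2468 minus DMSO, log2 of intensity + 16) with its 95% interval from limma, ordered by size. Filled points passed at an adjusted p under 0.05, and the changes run from -2.27 for FIG1 to -0.36 for AGA2, whose interval alone crosses 0.

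Over all 8968 probe sets tested, 3470 of them without a gene name, 0.758% were called lower and 1.83% higher by limma at an adjusted p under 0.05. Of the 9 genes 7 were called lower and 0 higher, and at an unadjusted p under 0.05, 8 were lower and 0 higher, against 7.84% lower and 8.56% higher over all probe sets. With the 5498 named S. cerevisiae probe sets tested alone, 203 were called lower and 326 higher, 8 and 0 of them among the 9 genes. Only 5557 of the 8968 probe sets were above background on at least 3 arrays, so the shares over all probe sets include many dim ones. The values of the groups did not overlap, with OGT2468 lower, in 8 of the 9 genes and in 12.1% of all probe sets tested. The median change of the 9 genes was -1.21, and that of all probe sets tested was -0.01. Of the 22 probe sets that were called lower by at least 2-fold, 6 belonged to these genes, namely FIG1, FIG2, FUS2, AGA1, FUS1 and KAR4. Because the 9 genes were chosen with earlier results of these data known, such counts describe them and are not an independent test. Among the measured falls of the 5449 genes, FIG2 and FUS2 had ranks 7 and 8, AGA1 and FUS1 ranks 16 and 18, and KAR4 and KAR5 ranks 22 and 26. SAG1 followed at rank 94, and AGA2 is not ranked, since its values lay around background. Without 1 array between 5 and 8 of the 9 genes were called, with 5 without OGT2468 replicate 3 or DMSO replicate 3, 6 without OGT2468 replicate 1 or DMSO replicate 1 or 2, and 8 without OGT2468 replicate 2.

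The replicate arrays of the treated group were more spread out for these genes. For the 8 genes above background, the median SD of the log2 values was 0.19 among OGT2468 arrays and 0.09 among DMSO arrays, while over all named probe sets it was 0.08 in both groups. The SD was larger with OGT2468 in 7 of the 8 genes, and it was largest for AGA1, at 0.36 with OGT2468 and 0.09 with DMSO, and for FIG1, at 0.35 with OGT2468 and 0.11 with DMSO. OGT2468 replicate 2 had the highest of the 3 treated values in 7 of the 8 genes after normalization. Among the DMSO arrays the highest value fell on replicates 1, 2 and 3 in 3, 3 and 2 of the 8 genes. The difference in spread was noticed in these values and was not tested.

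**Figure D3:**
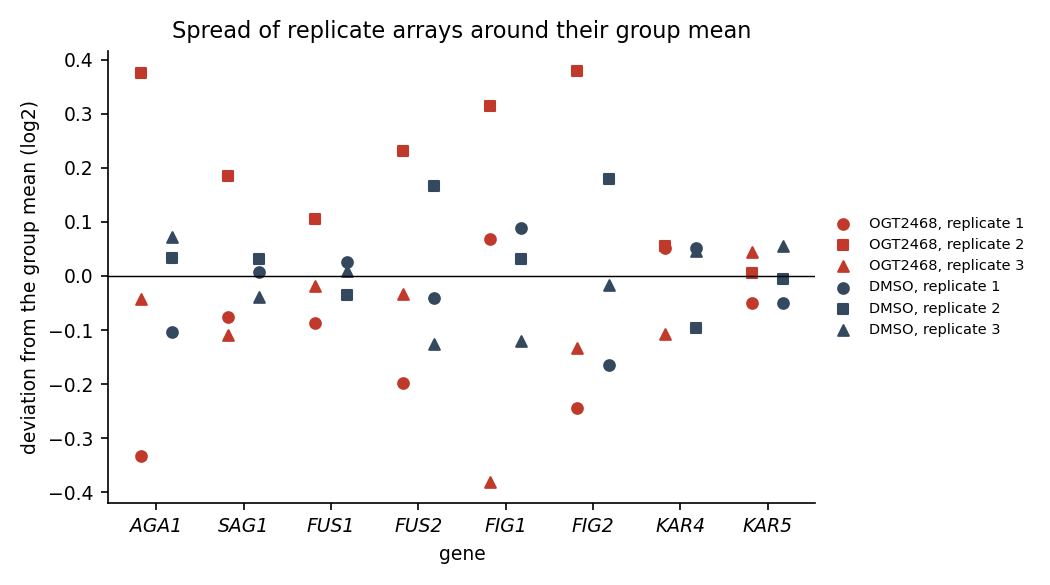
Deviation of each array from the mean of its group (y axis, log2 of normalized intensity + 16) for the 8 genes above background, OGT2468 in red left of DMSO in dark grey. The red squares of OGT2468 replicate 2 are the highest treated values in 7 genes, and the spread is widest for AGA1 and FIG1 (SD 0.36 and 0.35 with OGT2468).

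Genes that share a role or a name were set against each other by their ratio within each array, in 4 pairs. The log2 ratio of AGA1 to SAG1 averaged -0.93 ± 0.23 with OGT2468 and -0.18 ± 0.11 with DMSO (SD, n = 3 each). The difference was -0.75 ± 0.15 (SE), a larger fall of AGA1 than of SAG1 in groups that did not overlap (exact two-sided permutation test, p = 0.1, the smallest that 3 against 3 can give). FUS2 over FUS1 was -2.41 ± 0.12 with OGT2468 and -1.88 ± 0.18 with DMSO (SD, n = 3 each), and FIG1 over FIG2 was -2.07 ± 0.29 with OGT2468 and -1.56 ± 0.22 with DMSO. Both differences, -0.54 ± 0.12 and -0.51 ± 0.21 (SE), also had an exact permutation p of 0.1. The ratio of KAR4 to KAR5 overlapped between the groups, with a difference of -0.09 ± 0.09 (SE, exact permutation p = 0.5). Adjusted over the 4 pairs, the exact p-values were 0.133 for the first 3 pairs and 0.5 for the last, so none could pass.

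Other genes of the mating pathway were counted from lists that were written with earlier results of these data known. Of the 10 PRM genes, a set named for regulation by pheromone, 6 fell and 2 rose, with a median change of -1.13. PRM3 (-2.37), which acts in nuclear fusion, PRM2 (-2.14) and PRM1 (-2.04), which acts in the fusion of plasma membranes, fell, while PRM10 (1.41) rose, as did PRM5 (0.73), named after its value was seen. Under all 4 other scalings and without any 1 array 6 were again called lower, while 1 gene rose, PRM10, with no scaling or scaling on the hybridization controls. Of 22 genes of the receptors, the G protein, the MAP kinase cascade and their regulators, 4 fell, with a median change of -0.14. These were STE2, the receptor for alpha factor (-1.09), SST2, which dampens G protein signalling (-0.72), FAR1, which arrests the cell cycle for mating (-0.55), and FUS3, the MAP kinase of mating (-0.53). Without 1 array between 1 and 3 of the 22 genes were called lower. The count was 2 without OGT2468 replicate 3 or DMSO replicate 2, and 1 without DMSO replicate 1 or 3. With a pseudocount of 64, the filter on dim probe sets or named probe sets alone, 6 of the 22 genes were called lower. The intensity trend gave 7. STE12 had 1645, 1674 and 1473 units with OGT2468, against 2382, 2360 and 2996.5 units with DMSO. Its change of -0.39 ± 0.08 (SE) did not pass (limma adjusted p = 0.0797), although the groups did not overlap in intensity.

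Of 26 other genes of cell fusion, nuclear fusion and the mating projection measured, 4 fell and 1 rose, and the median change was -0.01. Over all probe sets tested 0.758% were called lower and 1.83% higher. With the 5498 named probe sets tested alone, 203 were called lower and 326 higher, 4 and 2 of them in this list. Besides PRM1, PRM2 and PRM3, which are also in the PRM list, CIK1 fell by 0.52 on the log2 scale. The list had 3 lower calls with no scaling, with the replicate block, and without OGT2468 replicate 3 or DMSO replicate 1 or 3. It had 5 with the filter on dim probe sets or the intensity trend. Cik1 is the partner of the motor protein Kar3 in karyogamy, and KAR3 itself had a change of -0.28 ± 0.08 (SE, limma adjusted p = 0.149). RVS161, the partner of Fus2, had a change of -0.09 ± 0.09, SPA2, a scaffold of polarized growth, -0.26 ± 0.08, and KAR9, which orients the nucleus, 0.05 ± 0.13, and none of these passed. The gene that rose in the test over all probe sets was JEM1 (0.73), an ER chaperone partner needed for karyogamy, named after its value was seen. Its call was lost without any 1 array, with no scaling and with scaling on the hybridization controls. Of 21 measured GPI cell wall proteins and flocculins, a class to which Aga1, Sag1 and Fig2 belong by their anchor, 4 rose and 2 fell, with a median change of 0.03. CRH1 (0.83), DAN4 (0.98), CWP1 (0.83) and PST1 (0.84) rose, calls that dropped to 0 with no scaling between arrays and 1 with scaling on the hybridization controls, and the flocculin gene FLO11 (-1.25) and TIP1 (-0.56) fell, calls lost without any 1 array. FLO11 and TIP1 were also named after their values were seen. With a pseudocount of 64, the filter on dim probe sets, named probe sets alone or the intensity trend, 4 genes of the GPI list were called lower.

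**Figure D4:**
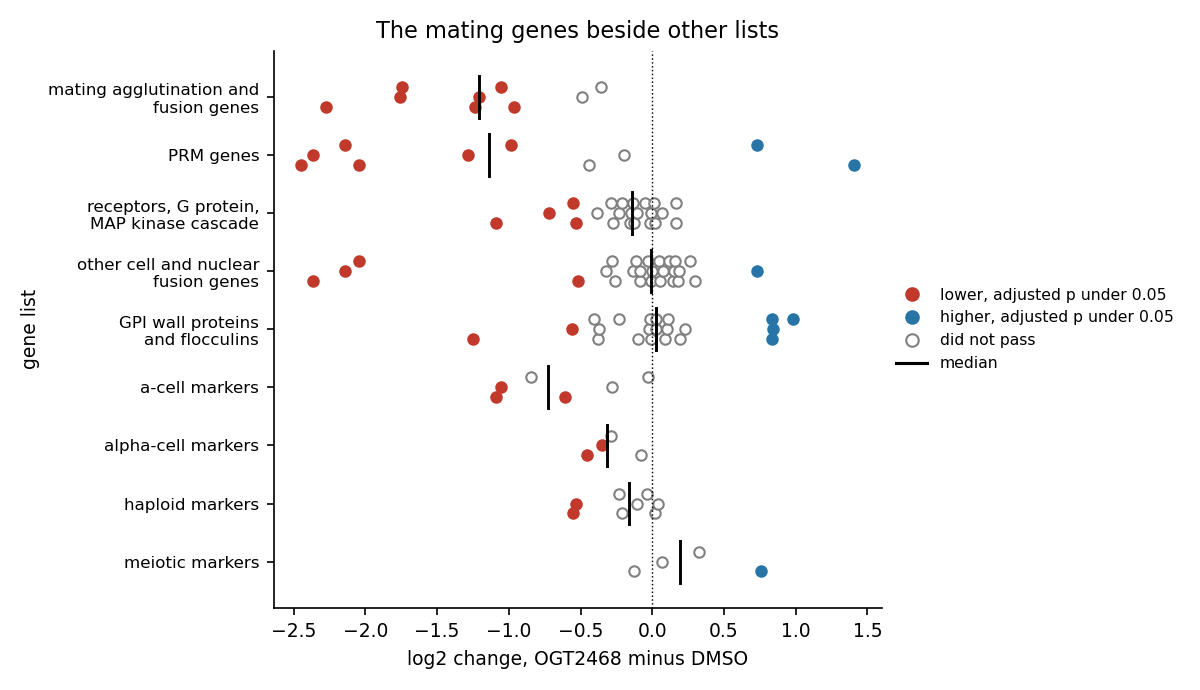
Log2 change (x axis, OGT2468 minus DMSO) of each gene of the 9 mating genes and of 8 further lists, 1 point per gene, coloured where limma's adjusted p was under 0.05, with a line at the median. The medians are -1.21 for the 9 genes and -1.13 for the PRM genes, and -0.14, -0.01 and 0.03 for the signalling, other fusion and GPI wall lists.

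Because AGA2 and SAG1 belong to different mating types, markers of the types were read beside them. All 4 markers of alpha cells, STE3, MF(ALPHA)1, MF(ALPHA)2 and HMLALPHA1, were above background on every array, and their summed normalized intensity was 25043 to 26223 units with OGT2468, against 29505 to 30771 units with DMSO. Of 6 markers of a cells, 3 were above background on all OGT2468 arrays and 4 on all DMSO arrays, and none was at background on every array. Their sum was 389 to 416 units with OGT2468, against 744 to 869 units with DMSO. Each sum is weighted towards its brightest probe sets and is read between groups only, so the alpha-cell and a-cell sums are not compared. The a-cell markers STE2 and MFA2 (-1.06), a pheromone gene, and STE6 (-0.61), the exporter of that pheromone, fell, as did MF(ALPHA)2 (-0.35) and HMLALPHA1 (-0.46) among the alpha-cell markers. The probe set of HMLALPHA1 is of a type that can match several sequences, so its signal may not come from HMLALPHA1 alone. STE3 (-0.29), MF(ALPHA)1 (-0.08) and MFA1 (-0.28) did not pass. Neither did the remaining a-cell markers, ASG7 (-0.84) and BAR1 (-0.03). ASG7 was above background on 0 OGT2468 arrays and 2 DMSO arrays, and BAR1 on 2 arrays of each group. Without any 1 array no alpha-cell marker passed, nor with no scaling, scaling on the upper quartile or medians subtracted, and 1 passed on the hybridization controls. With a pseudocount of 64, the filter on dim probe sets, named probe sets alone or the intensity trend, 3 alpha-cell markers passed as lower. The 3 calls among a-cell markers became 1 without OGT2468 replicate 1 or 3 or DMSO replicate 3. Of 8 haploid markers 2 fell, FUS3 and FAR1 of the signalling list, with 0 without OGT2468 replicate 3 or DMSO replicate 1 or 3 and 1 without any other 1 array. Of 4 meiotic markers 1 rose, IME2 (0.76), a call lost without OGT2468 replicate 3 or DMSO replicate 1 or 3, with no scaling and with scaling on the hybridization controls. The part of these markers in the changes of the 9 genes was not tested.

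Genes next to the 9 genes on the chromosome were read beside them. By gene order in the R64 assembly, KAR4, FUS1 and FIG2 lie on chromosome III, KAR5 and FUS2 on chromosome XIII, and the other 4 on chromosomes of their own. Of the 18 protein-coding neighbours on either side 17 were measured. limma called 0 lower and 1 higher, against 0.758% and 1.83% of all probe sets tested. At such low shares, a count of 0 or 1 among 17 cannot tell the neighbours from other probe sets. The shares over all probe sets include unnamed ones, while every neighbour measured had a named probe set. With the 5498 named probe sets tested alone, 203 were called lower and 326 higher. At an unadjusted p under 0.05, 3 were lower and 1 higher, against 7.84% and 8.56% of all probe sets. The changes of the neighbours lay between -0.37 and 0.57, with a median of -0.11, against -0.01 for all probe sets tested. The neighbour that rose was HBN1, beside FUS1 and named after its value was seen (0.57 ± 0.07, SE, limma adjusted p = 0.0197).

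The mean pattern of the 8 genes above background was set against 5197 other genes over the 6 arrays. The most alike were YIL082W-A (Pearson r = 0.999), PRM1 (0.998), BIO2 (0.998), HXT4 (0.995) and YGR109W-A (0.995). YIL082W-A and YGR109W-A are reading frames of the Ty3 retrotransposon, whose copies a probe set may not separate, BIO2 encodes biotin synthase, and HXT4 a hexose transporter. Their changes were -1.02, -2.04, -0.49, -1.55 and -1.96 in the order given. Such r values rest mostly on the difference between the 2 groups and on arrays that all genes share.

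With other processing of the same arrays the changes of all 9 genes stayed below 0. With no scaling between arrays the median of all probe sets moved to -0.19, and with scaling on the hybridization controls also to -0.19. The median of the 9 genes was then -1.47 and -1.46, a difference from all probe sets of -1.28 in both cases. The same 7 genes were called under these 2 scalings, on the upper quartile and with each array's median subtracted.

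**Figure D5:**
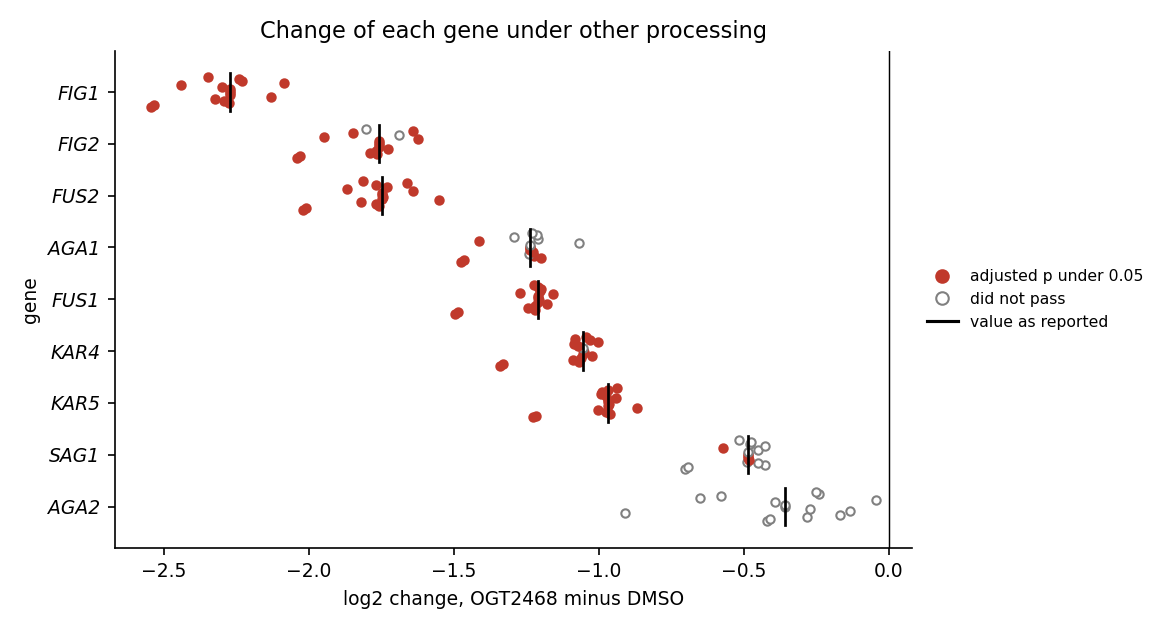
Log2 change (x axis) of each gene under 16 other ways of processing (15 for AGA2), filled where limma's adjusted p was under 0.05, with a black line at the value as reported. FIG1, FUS2, FUS1 and KAR5 passed in all 16, while AGA1 lost its call in 7 and SAG1 gained one in 5.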

How the data were processed

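Per the labels' protocols, biotin-labelled total RNA of each of 6 cultures was measured on its own Affymetrix array. The deposited table holds 1 linear intensity per probe set and array. The submitters' processing notes name GCRMA, but the deposited intensities are neither on a log2 scale nor on a common distribution, and for their background correction the step is not stated. Groups and replicate numbers came from the sample titles.

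Of 10928 probe sets, 5498 matched 1 S. cerevisiae gene in the platform annotation and the R64 gene table. The 213 platform controls and 1747 probe sets of another species were left out, and 3470 without a name were kept in the test. Quantile normalization over these 8968 probe sets was followed by log2(intensity + 16). On each array, background was set at percentile 98 of the probe sets of the other species. limma 3.58.1 (lmFit, eBayes; R 4.3.3) gave the tests, with Benjamini-Hochberg adjustment over all tested probe sets, and the steps were tested on simulated data. The number of arrays, 3 per group, limits the precision. The 9 genes and all lists were chosen with earlier results of these data known. Named genes were the 9, up to 4 of each list by lowest p, a fixed set of pathway genes, and the 5 most alike in pattern. For genes with several probe sets the brightest was used. Promoter sequences were not analysed here. Alternatives were other scalings, pseudocounts of 1 and 64, filters, another variance model, a replicate block and leaving out each array.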

Additional observations from a re-analysis of the deposited data

How the results depend on the processing

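Every one of the 9 genes kept its direction under the 16 alternatives (15 for AGA2, which the filter on dim probe sets removed). With a pseudocount of 1 AGA1 lost its call (change -1.24, limma adjusted p = 0.0661). SAG1 gained a call with a pseudocount of 64 (-0.48), with probe sets above background on at least 3 arrays (-0.49), with named S. cerevisiae probe sets alone (-0.49) and with an intensity trend and robust prior (-0.49), at adjusted p between 0.000795 and 0.0169. Leaving out 1 array, the change was -1.41 to -1.07 for AGA1, -1.95 to -1.63 for FIG2 and -0.57 to -0.43 for SAG1. With the replicate number as a block, AGA1 (-1.24, adjusted p = 0.0853) and KAR4 (-1.05, adjusted p = 0.0548) did not pass and 5 genes were called lower, and the PRM list then had 4 lower and 1 higher, the signalling list 1 lower, and the GPI wall, alpha-cell, haploid and meiotic lists 0 calls. The deviations of same-numbered arrays from their group means correlated at 0.062, 0.044 and 0.009, so the numbers are not taken as pairs. For 5 of the 6 arrays the same number nevertheless gave the highest correlation, DMSO replicate 3 being the exception.

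Over all probe sets the reported counts of 164 higher and 68 lower became 22 and 44 with no scaling, 40 and 77 on hybridization controls, 101 and 41 with medians subtracted, 292 and 187 with a pseudocount of 64, 350 and 227 after the filter, 326 and 203 for named probe sets alone, 356 and 240 with the trend, and 27 and 14 with the block. Without 1 array 61 to 91 were higher and 28 to 40 lower. The share of higher calls, 70.7% as reported, was then 33.3% with no scaling and 34.2% on hybridization controls. Values of AGA2 are limited by their closeness to background. Whether SAG1 and AGA1, bright on the DMSO arrays, were compressed near the array maximum was not tested.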
